A study of Zeugodacus cucurbitae with 52 samples.

Results

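The genes described here are melon fly (Zeugodacus cucurbitae) genes with no known product whose expression is concentrated in the middle or the late pupa. They were taken from the genes described as uncharacterized in the reference annotation and the genes newly assembled from the reads. They were chosen by their mean levels, taking each gene whose higher mean of the 5-d-old and the 9-d-old pupa was at least 5 TPM and at least 5 times its mean in every other stage. TPM, the unit of these levels, expresses the reads of a gene relative to its length and to the sum of such values in the library. In all 143 of 18241 genes met these conditions, out of 8112 uncharacterized or newly assembled genes. They comprised 78 uncharacterized reference genes and 65 newly assembled genes, and 83 of the 143 had the higher mean on day 5 of the pupa and 60 on day 9. The same thresholds were met by 91 of the 10129 genes with a product.

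Whole bodies from 13 stages of flies reared at 26 to 27 °C, all without treatment, were sequenced in 4 libraries per stage. The libraries came from pools of 100 eggs, 100 larvae of 1 d, 20 larvae of 3 d or 10 larvae of 7 d, from pools of 3 pupae of 1 d, 5 d or 9 d, and from pools of 3 virgin females or 3 virgin males of 1 d, 5 d or 9 d. The sex of the pupae is not given by the labels. In a whole body, more cells of a type and more RNA per cell cannot be told apart.

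Inside the puparium of a fly, most larval tissues break down and the adult body is built from imaginal discs and histoblasts under pulses of the steroid hormone ecdysone. The new epidermis secretes the layers of the adult cuticle and its bristles, the flight muscles assemble, and the photoreceptors of the compound eye mature. Cuticle and pigment enzymes, sarcomere proteins and phototransduction proteins are therefore known as genes of the pupa, and other genes of this period have no assigned product.

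The middle and late pupa were apart from the other stages in how much of the library these genes filled. Their summed level was 28170 ± 824 TPM (SD, n = 4), 2.82% of the library, in 5-d-old pupae and 57948 ± 4380 TPM (SD, n = 4), 5.79%, in 9-d-old pupae. It was 296 ± 17.3 TPM in 1-d-old pupae and 210 ± 25.6 TPM in 7-d-old larvae, the stages just before. In freshly emerged adults it was 2378 ± 104 TPM in females and 2030 ± 34.6 TPM in males, and by 9 d it had come down to 264 ± 24.2 TPM and 556 ± 65.2 TPM. These values follow from the rule that chose the genes and were not tested.

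A few genes made up most of these sums. In 5-d-old pupae gene8460 alone took 27.9% of the summed level, and the leading 5 genes (gene8460, gene8011, gene13429, gene654 and gene5354) took 72.0%. In 9-d-old pupae gene5066 took 38.0%, and gene5066 and gene8465 together took 73.4%. The remaining genes lay far lower, and the median of the peak means over all 143 genes was 19.7 TPM.

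**Figure D1:**
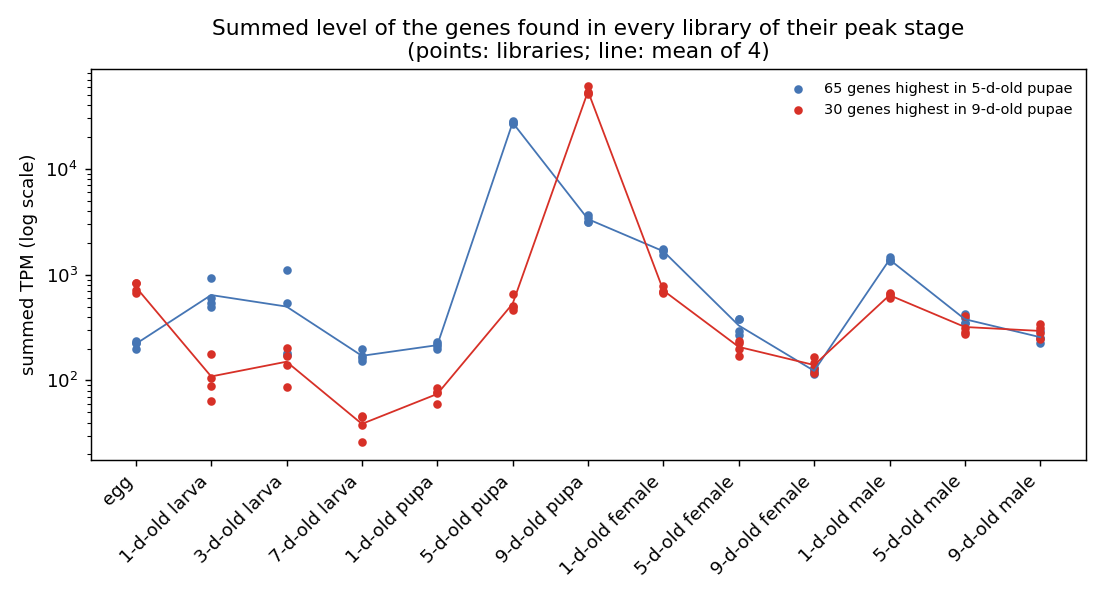
Summed TPM (log scale) at each of the 13 stages of the genes that were above 0 TPM in every library of their peak stage, with 65 genes highest in 5-d-old pupae in blue and 30 highest in 9-d-old pupae in red. Points are libraries and lines are means of 4. The 2 sets peak on different days, and in 1-d-old adults of both sexes both are above their levels in 7-d-old larvae and 1-d-old pupae.

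The 143 genes fell into a set seen in every replicate and a set of short assembled fragments seen in few. All 4 libraries of the peak stage were above 0 TPM for 95 genes, namely 77 of 78 from the reference annotation and 18 of 65 newly assembled ones. Another 37 genes were above 0 in 1 library of their peak stage, 7 in 2 and 4 in 3. The 37 genes were all newly assembled and between 202 and 251 nt long, and 25 of them were above 0 in 1 of the 52 libraries. For example, MSTRG.7802 (207 nt) had a mean of 28.8 TPM in 9-d-old pupae that came from replicate 4 alone. For such genes the mean meets the rule through a single pool, so the data do not show them as genes of a stage.

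Short genes were more frequent among the 143 than in the table as a whole. Below 300 nt were 45 (31.5%) of the 143 genes and 8.52% of all 18241 genes. Among newly assembled genes alone, 45 (69.2%) of 65 lay below 300 nt, against 21.0% of all 4481. None of the 78 reference genes did, and their median length was 1203 nt. Among the 44 genes found in 1 or 2 libraries of the peak stage, the highest library was 9-d-old pupa replicate 4 for 16 and 5-d-old pupa replicate 2 for 8. Both of these libraries, as well as 9-d-old pupa replicates 1 and 3, had a low share of mapped reads. By the study's shares, 9-d-old pupa replicate 2 also mapped less than 5-d-old pupa replicates 1, 3 and 4. The part of mapping in these values was not tested.

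**Figure D2:**
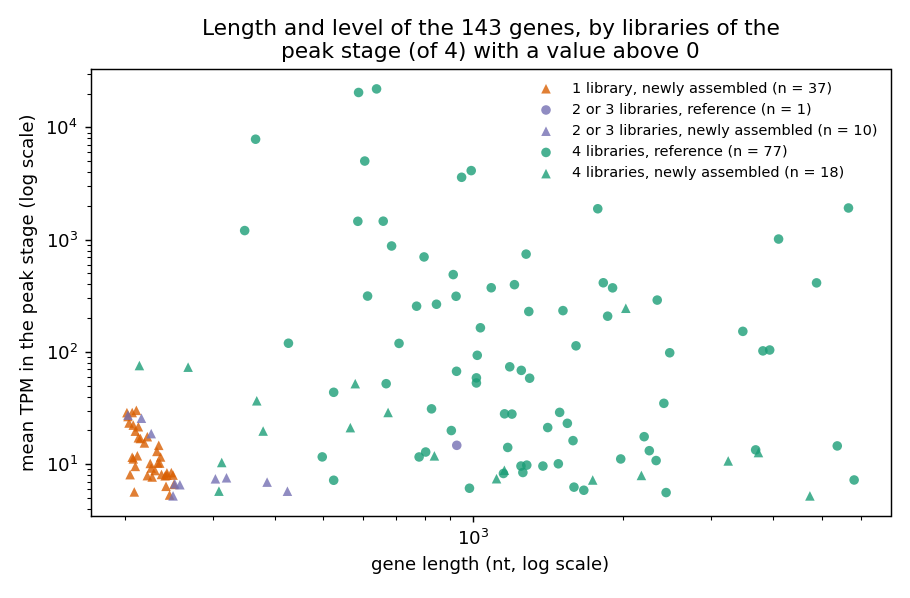
Gene length in nt (log scale) against mean TPM in the peak stage (log scale) for the 143 genes, coloured by how many of the 4 libraries of the peak stage were above 0, with circles for reference genes and triangles for newly assembled genes. The 37 genes found in 1 library sit at 202 to 251 nt, at the left edge, and the genes above 1000 TPM were all found in 4 libraries.

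The 95 genes found in all 4 libraries of their peak stage were mostly steady between pools. Their median coefficient of variation in the peak stage was 16.1%, the highest library was under 2 times the lowest for 74 of them, and it was over 4 times the lowest for 8. The peak mean was a median of 13.9 times the highest mean of any stage outside the 2, and 100 times or more for 19 genes. The widest margin was that of gene6108, with a peak mean 827 times its highest mean outside the 2 days, that of eggs. That mean was near the floor, with 0.1, 0, 0 and 0.04 TPM in the egg libraries. In 9-d-old pupae gene6108 had 1.09, 0.21, 0.98 and 0.87 TPM. Among the 8 genes of wide spread, gene10060 had 0.65, 0.58, 1.07 and 90.2 TPM in the 4 libraries of 5-d-old pupae. gene7346 had 0.26, 57.2, 0.47 and 0.23 TPM in the same libraries. gene1540, the reference gene not among the 95, had 0, 0.20, 0 and 58.7 TPM in 9-d-old pupae. In each of these 3 genes, chosen after their values were seen, a single pool carried the mean.

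The first comparison asked on which of the 2 days each gene was higher. The rule takes the higher of the 2 days without setting which, so the direction is free, but 1 of the 2 was chosen to be high and the number of genes that differ says little. Limma was run on log2(TPM + 1), and a gene was called higher or lower when its adjusted p was under 0.05 and its log2 fold change exceeded 2 in size. TPM had to be above 0.1 in at least 4 libraries, which 103 of the 143 genes met, all 78 reference genes and 25 newly assembled genes. Only 1 of the 103 was above 0.1 TPM in its peak stage alone. Of these 103, 28 were higher on day 9, where 4.22% of all 17097 genes tested were, and 49 were higher on day 5, where 2.84% were. The other 26 passed in neither direction, although 15 of them had an adjusted p under 0.05. The 4 libraries of one day lay entirely above those of the other for 27 of the 28, all 49 and 13 of the 26, as they did for 43.1% of all genes tested. The median log2 fold change of the 103 genes was -1.74, against -0.01 for all genes tested. By the study's shares of mapped reads, every library of 9-d-old pupae mapped less than 5-d-old pupa replicates 1, 3 and 4. Only 5-d-old pupa replicate 2 mapped less than they did. Day and mapping thus largely go together, and the part of mapping was not tested.

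The genes higher on day 9 included the most abundant of all. gene5066 (LOC105211276, 640 nt) had 7.50, 5.30, 2.66 and 5.59 TPM in the 4 libraries of 5-d-old pupae and 27265, 20624, 18964 and 21328 TPM in those of 9-d-old pupae. The 2 days were far apart in every library. Its log2 fold change was 11.83 (SE 0.35, limma adjusted p = 5.4e-29). In 1-d-old adults it stood at 196 ± 43.3 TPM in females and 161 ± 33.4 TPM in males, and in 9-d-old females at 0.0750 TPM.

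gene8465 (LOC105214926, 589 nt) reached a level close to that of gene5066 from a higher base. It had 65.2, 54.6, 73.0 and 65.1 TPM in 5-d-old pupae and 21017, 18815, 21039 and 21066 TPM in 9-d-old pupae, with the libraries of each day close together and the 2 days far apart. The log2 fold change was 8.29 (SE 0.38, limma adjusted p = 1.6e-22). Unlike the other leading late genes, it had its next highest level in eggs, with 532, 599, 723 and 664 TPM.

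Some of the other leading late genes were near 0 TPM on day 5. gene8120 (LOC105214553) rose from 0.55, 1.14, 0.49 and 0.62 TPM to 4254, 4067, 5197 and 2981 TPM, with a log2 fold change of 11.23 (SE 0.33, limma adjusted p = 3.3e-29). It was still found after emergence, at 232 ± 17.3 TPM in females and 209 ± 29.1 TPM in males of 1 d. gene1854 (LOC105221156) rose from 1.20 ± 0.700 to 1462 ± 194 TPM and gene1853 (LOC105221155) from 0.205 ± 0.0686 to 1013 ± 130.4 TPM (SD, n = 4 each). The log2 fold change of gene1853 was 9.71 (SE 0.70, limma adjusted p = 9.2e-16), and that of gene1854 was 9.42 (SE 0.51, limma adjusted p = 7.1e-20). The 2 genes had their next highest mean in 3-d-old larvae, at 12.4 and 46.2 TPM, but the pools there differed widely. gene1854 had 19.25, 0.57, 29.1 and 0.72 TPM in them and gene1853 had 71.5, 0.35, 112.5 and 0.34 TPM. In 1-d-old larvae gene1853 was found in every library, at 28.55, 24.1, 40.0 and 89.7 TPM. It stayed under 0.2 TPM in every adult mean.

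Smaller rises from a clear level on day 5 were also found. gene296 (LOC105208745) went from 241, 168, 159.7 and 162 TPM to 1243, 961, 981 and 1637 TPM, with a log2 fold change of 2.70 (SE 0.49, limma adjusted p = 8.2e-06). gene8949 (LOC105215462) went from 92.7 ± 57.0 to 879 ± 195 TPM and gene4574 (LOC105210790) from 33.4 ± 5.27 to 413 ± 75.4 TPM. Their log2 fold changes were 3.38 and 3.58. Over the 28 genes higher on day 9 the log2 fold change ranged from 2.07 to 11.83, with a median of 3.69. The median of their means was 1.06 TPM on day 5 and 227 TPM on day 9.

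The genes higher on day 5 were led by gene8460 (LOC105214922), a short gene of 366 nt. It had 7413, 8199, 7853 and 7951 TPM in 5-d-old pupae and 17.3, 11.2, 19.9 and 12.5 TPM in 9-d-old pupae. The 4 middle libraries differed by little, and every one of them was far above every late library. Its log2 fold change was -8.95 (SE 0.43, limma adjusted p = 1.3e-21). Outside the pupa it stayed under 10 TPM in every stage mean.

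gene8011 (LOC105214440) and its neighbour gene8010 (LOC105214439) both fell between the 2 days and were also found in young adults. gene8011 had 4746, 4853, 5244 and 5231 TPM on day 5 and 5.02, 7.32, 8.04 and 8.01 TPM on day 9. The log2 fold change was -9.29 (SE 0.60, limma adjusted p = 3.2e-17). gene8010 went from 702 ± 65.7 to 7.43 ± 2.00 TPM, with a log2 fold change of -6.41 (SE 0.18, limma adjusted p = 2.9e-30). In 1-d-old adults gene8011 stood at 604 ± 87.7 TPM in females and 543 ± 60.5 TPM in males, and gene8010 at 97.9 and 89.0 TPM.

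gene5354 (LOC105211571) showed the largest fall of the 103 genes. It had 1777, 1937, 1952 and 1878 TPM on day 5 and 1.44 ± 0.685 TPM (SD, n = 4) on day 9, and no other stage mean was above 3.28 TPM, that of 5-d-old males. The log2 fold change was -9.63 (SE 0.20, limma adjusted p = 7.5e-35). gene7411 (LOC105213782) fell from 581, 481, 496 and 396 TPM to 0.20, 0.10, 0.90 and 0 TPM, with a log2 fold change of -8.59 (SE 0.30, limma adjusted p = 1.3e-26). gene11076 (LOC105217775) fell from 313 ± 79.5 to 0.882 ± 0.436 TPM and gene6432 (LOC105212720) from 289.6 ± 19.6 to 3.33 ± 0.760 TPM. Their changes were -7.38 and -6.08 on the log2 scale.

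gene13429 (LOC105220319) fell least of the leading genes and remained abundant in the late pupa. Its libraries held 3560.2, 3589.7, 3364 and 3873 TPM on day 5 and 1017, 882, 786 and 785 TPM on day 9. The log2 fold change of -2.06 (SE 0.24, limma adjusted p = 5.7e-10) was just past the threshold, and it was -1.97 when libraries were rescaled by median-of-ratios size factors, which ends the call. It was also found at 253 TPM in 1-d-old larvae and 625 TPM in 1-d-old females, and its peak mean was 5.76 times its highest mean outside the 2 days. Over the 49 genes higher on day 5 the log2 fold change ranged from -9.63 to -2.05, with a median of -3.53.

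**Figure D3:**
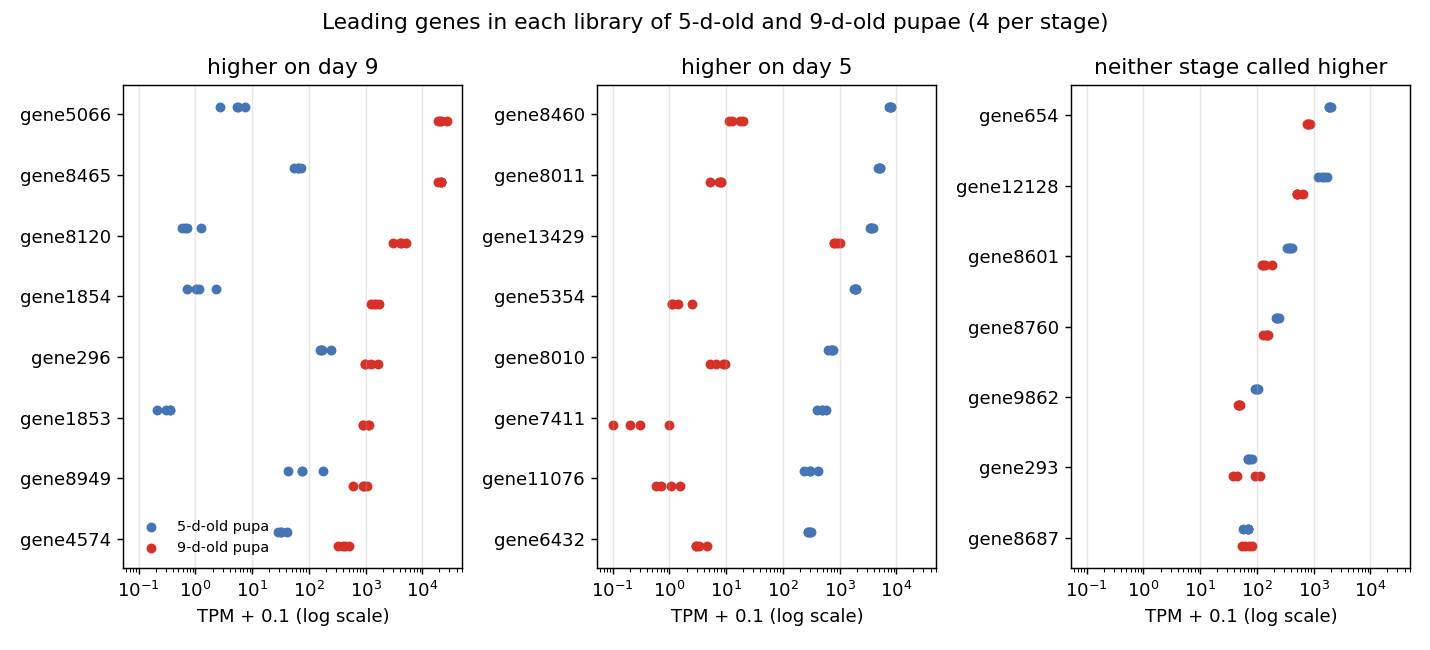
TPM + 0.1 (log scale) of the leading genes in each of the 4 libraries of 5-d-old pupae (blue) and 9-d-old pupae (red), with the 8 genes of highest peak mean that were higher on day 9, the 8 that were higher on day 5, and 7 called in neither direction. The 2 days do not overlap for any of the 16 genes in the first and second panels, and they overlap for gene293 and gene8687 in the third.

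Among the genes called in neither direction, some kept a high level on both days. gene654 (LOC105214942), a long gene of 5661 nt, had 1829, 1964, 1857 and 2013 TPM on day 5 and 869.6, 779.7, 750.0 and 789 TPM on day 9. gene12128 (LOC105218915) had 1176, 1734, 1410.3 and 1514 TPM and 506, 648, 517 and 503 TPM. Both were lower on day 9 in every library without reaching the fold threshold, gene654 with a log2 fold change of -1.27 (SE 0.15, limma adjusted p = 1.1e-09) and gene12128 with -1.42 (SE 0.25, limma adjusted p = 7e-06). No stage outside these 2 days had a mean above 11.8 TPM for gene654 or 5.35 TPM for gene12128.

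For other genes of this kind the 2 days could not be told apart. gene8687 (LOC105215165) had 57.2, 70.0, 68.8 and 70.8 TPM on day 5 and 71.1, 54.3, 62.6 and 81.0 TPM on day 9, and gene293 (LOC105208723) had 81.1, 75.0, 68.2 and 70.5 TPM and 44.6, 112, 93.5 and 37.9 TPM. The libraries overlapped in both genes, with log2 fold changes of 0.00 (SE 0.20, limma adjusted p = 1) and -0.17 (SE 0.22, limma adjusted p = 0.54). gene293 was even between the pools on day 5, whereas on day 9 replicates 2 and 3 were above replicates 1 and 4.

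gene8601, gene8760 and gene9862 had lower means on day 9 by less than the threshold, with log2 fold changes of -1.38, -0.67 and -1.01. For gene8601 (LOC105215084), at 372 ± 27.6 and 144 ± 29.1 TPM, the limma adjusted p was 0.057 although the libraries of the 2 days did not overlap. The spread in this fit is shared by all stages, and gene8601 ranged widely between pools of 3-d-old larvae, with 70.7, 2.49, 215 and 2.71 TPM.

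Where the genes stood in the rest of the life cycle differed from gene to gene. For the 95 genes found in all 4 libraries, the median level in the other stages was highest in 1-d-old adults, at 0.798 TPM in females and 0.818 TPM in males for the 65 genes that peaked on day 5, and at 3.66 and 2.72 TPM for the 30 that peaked on day 9. The lowest medians were those of 7-d-old larvae, at 0.0825 and 0.109 TPM. Among the 49 genes higher on day 5, the highest stage outside the 2 days was the 1-d-old larva for 13 and the 1-d-old female for 10. Among the 28 higher on day 9 it was most often the egg, the 1-d-old female or the 5-d-old male, with 5 genes each.

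Genes that changed at the start of the pupa were looked for by comparing 1-d-old pupae with 7-d-old larvae, which the rule only caps. Genes already expressed at a like level in both are not found in this way. In 1-d-old pupae 34 of the 143 genes had a mean above 1 TPM, such as gene13429, at 137 TPM in the larvae and 129 TPM in the pupae. Of the 103 genes 5 were higher in 1-d-old pupae, where 12.2% of all genes tested were, and 1 was lower, where 4.95% were. gene8460 had 0, 0.91, 0.52 and 1.08 TPM in the larvae and 6.70, 12.9, 11.1 and 15.1 TPM in the pupae, with a log2 fold change of 2.94 (SE 0.43, limma adjusted p = 6.9e-08). gene9093 (LOC105215621), a gene of the late pupa at 373 ± 28.9 TPM, had 0, 0.19, 0.10 and 0.05 TPM and 1.57, 5.73, 11.3 and 7.15 TPM, with a log2 fold change of 2.58 (SE 0.27, limma adjusted p = 1.7e-11). All 4 pupal libraries were above all 4 larval libraries for both. The short assembled gene MSTRG.10792 was at 0 in every larval library and had 4.55, 10.8, 0 and 10.9 TPM in the pupae, so the stages overlapped, with an adjusted p of 4.6e-05. The other genes called higher were gene1983, at 0.203 and 4.85 TPM, and gene7481, at 0.0275 and 3.88 TPM. gene8601 was lower, with 9.07, 7.45, 7.54 and 8.45 TPM in larvae and 0.80, 1.40, 1.32 and 1.47 TPM in pupae. Its log2 fold change of -2.03 (SE 0.62, limma adjusted p = 0.0035) became -1.98 without 7-d-old larva replicate 1 and -1.93 without 1-d-old pupa replicate 1, either of which ends the call.

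The scaling bears on that comparison. The median log2 fold change of all genes tested was 0.67, and that of the 103 genes was 0.14. After median-of-ratios scaling the median of all genes was 0.03, and 3 of the 103 genes were higher and 3 lower in place of 5 and 1. Of all genes tested 619 were then higher and 1429 lower, in place of 2093 and 846. gene8460, gene9093 and MSTRG.10792 were called with both scalings, and gene1983 and gene7481 were not. By the study's totals of reads and bases, cleaned reads were shorter in 1-d-old pupae than in 7-d-old larva replicates 1 and 2. They were about as long as in replicates 3 and 4. Stage and the length of the cleaned reads are thus partly mixed here, and the part of that length was not tested.

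In adults the question was whether the level left after emergence persisted. Of the 103 genes 11 were lower in 5-d-old than in 1-d-old females, where 1.04% of all genes tested were, and 1 was higher, where 6.77% were. In males 6 were lower, where 0.708% of all genes were, and by limma none was higher, where 1.87% were, although 10 had an unadjusted and 8 an adjusted p under 0.05 in that direction. Genes near 0 TPM at both ages cannot reach the threshold on log2(TPM + 1), so the low counts of genes higher say little. gene5066 had 164, 177, 259.9 and 184 TPM in 1-d-old females and 0.13, 0.13, 0.55 and 0.46 TPM in 5-d-old females, a log2 fold change of -7.22 (SE 0.35, limma adjusted p = 1.5e-21). In males the values were 194, 174, 115 and 160.1 TPM and 1.17, 0.49, 0.23 and 1.73 TPM, a log2 fold change of -6.45 (SE 0.35, limma adjusted p = 4.1e-19). Every young library was far above every older one of its sex.

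gene8011 and gene8949 followed the same course in both sexes. gene8011 had 489.7, 598, 628 and 701 TPM in 1-d-old females and 4.75, 1.82, 21.3 and 20.3 TPM in 5-d-old females, with a log2 fold change of -6.00 (SE 0.60, limma adjusted p = 1.1e-11), and one of -5.59 (SE 0.60, limma adjusted p = 5e-10) in males. For gene8949 the log2 fold changes were -4.75 (SE 0.56, limma adjusted p = 6.6e-10) in females and -5.86 (SE 0.56, limma adjusted p = 1.8e-11) in males. gene8010, gene8687 and gene11076 were the other genes lower in both sexes. Genes called lower in females alone were gene654, gene1972, gene4574, gene8601 and gene11024. The difference between the sexes in the change with age was tested directly, and by limma none of the 103 genes passed in either direction, where 1.41% (higher in males) and 5.75% (lower) of all genes did. Genes near 0 TPM in all these adults could not pass here either. An unadjusted p under 0.05 was found for 21 genes higher and 1 lower, and an adjusted p under 0.05 for 16 and 1, with changes smaller than the fold threshold.

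By the study's totals of reads and bases, all libraries were sequenced to the same length, but reads were shorter after cleaning in the 1-d-old than in the 5-d-old adults of both sexes, so age and the length of the cleaned reads cannot be told apart here. Rescaling moved the median of all genes in the comparison of females from 0.05 to -0.10, and 17 genes were then lower and 0 higher. Of all genes tested 377 were then lower and 690 higher.

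Few of these genes passed the fold threshold between the sexes. The rule caps the adult stages, and 52 of the 143 genes had a mean above 1 TPM in 1-d-old females and 48 in males. On log2(TPM + 1), genes near 0 TPM in both sexes cannot reach the threshold. The low counts in 1-d-old, 5-d-old and 9-d-old adults therefore say little. Of the 103, 1 was higher and 1 lower in 1-d-old males than in females, where 4.52% and 0.117% of all genes were. gene7163 (LOC105213513), a gene of the late pupa at 314 ± 55.1 TPM, had 0.81, 1.43, 1.70 and 1.98 TPM in females and 16.5, 9.13, 17.3 and 12.3 TPM in males, with a log2 fold change of 2.56 (SE 0.44, limma adjusted p = 9.6e-06). It rose in females by 5 d to 5.76, 20.7, 12.2 and 14.1 TPM, with a log2 fold change of 2.42 (SE 0.44, limma adjusted p = 6.8e-06), which became 1.87 after rescaling and was then no longer called.

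gene1166 (LOC105218207) was the gene lower in males. It had 2.61, 2.61, 3.49 and 5.23 TPM in 1-d-old females and was listed at 0 in all 4 libraries of 1-d-old males, with a log2 fold change of -2.13 (SE 0.50, limma adjusted p = 0.0011). Without 1-d-old female replicate 4 the value was -1.96, which ends the call. In 5-d-old females it had 1.36, 1.23, 2.33 and 3.01 TPM and in 5-d-old males 0, 0.16, 0 and 0.20 TPM, and in 9-d-old females 1.25, 1.08, 1.48 and 1.87 TPM against 0 TPM in every library of 9-d-old males. The adult levels were low throughout, and 0 TPM in a library means only that the gene is listed at 0 there.

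In 5-d-old adults limma called none of the 103 genes in either direction, where 5.85% of all genes were higher in males and 4.84% lower. An unadjusted p under 0.05 was found for 22 genes higher and 3 lower in males, and an adjusted p under 0.05 for 22 and 2, so these missed the fold threshold and not the correction. In 9-d-old adults none was higher, where 6.81% of all genes were, although 35 had an unadjusted and 34 an adjusted p under 0.05 in that direction. With calls from a log2 fold change of 1, 16 were higher and 2 lower, where 3126 and 3925 of all 17097 genes tested were. At the threshold of 2, 1 was lower, where 10.1% were. That gene was gene8760 (LOC105215249), with 9.27, 7.96, 5.58 and 11.8 TPM in females and 0.45, 1.11, 1.05 and 0.88 TPM in males, and a log2 fold change of -2.34 (SE 0.28, limma adjusted p = 5e-10). In 9-d-old adults rescaling moved the median of all genes from 0.12 to 0.35, after which 2 genes were higher and 0 lower, with gene8760 at -1.61. Of all genes tested 1794 were then higher and 842 lower. In 5-d-old adults rescaling moved the median of all genes from 0.06 to 0.22.

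The same gene1166 also differed between pools of late pupae. Its 4 libraries of 9-d-old pupae held 38.7, 51.0, 34.5 and 0.28 TPM, so replicate 4 was near 0 and the other 3 were not. A set of 372 genes above 5 TPM in every library of 1-d-old males and under 0.3 TPM in every female library, chosen after the values were seen and holding none of the 143 genes, was summed beside it. It added up to 6725, 7147, 6619 and 17856 TPM in the 4 libraries of 9-d-old pupae, highest in replicate 4, and to 3608, 148, 10054 and 6091 TPM in those of 5-d-old pupae, lowest in replicate 2. The pupae are not sexed in the labels, and the part of this difference between pools in the values of any gene was not tested.

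**Figure D4:**
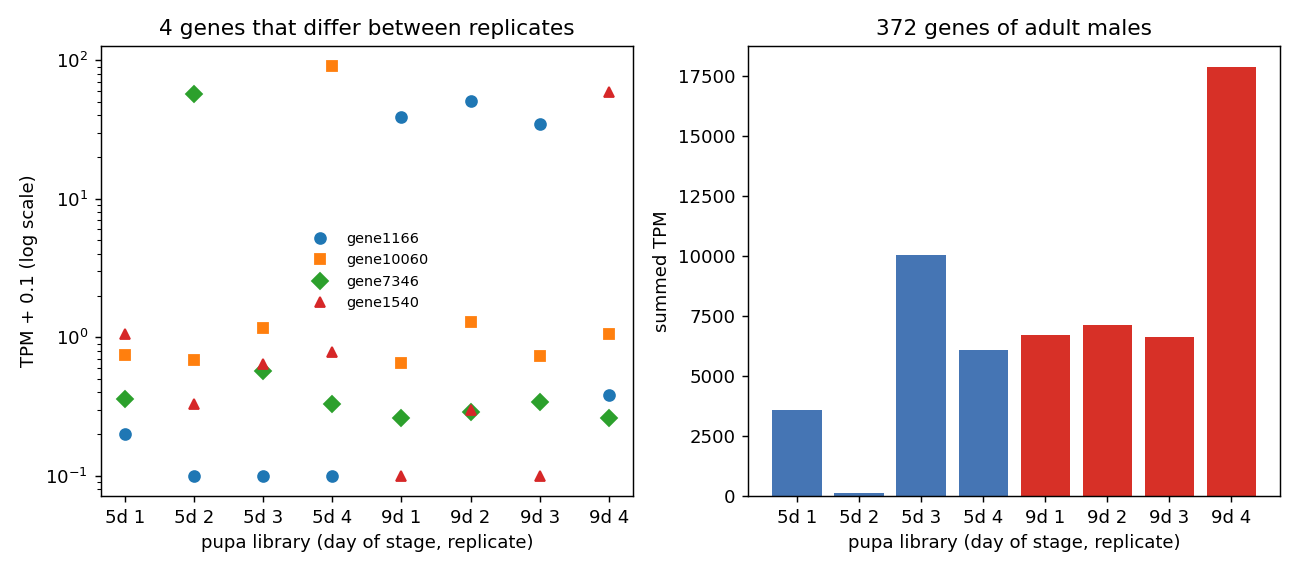
Left, TPM + 0.1 (log scale) of gene1166, gene10060, gene7346 and gene1540 in the 8 libraries of 5-d-old (5d) and 9-d-old (9d) pupae, numbered by replicate. Right, summed TPM of 372 genes above 5 TPM in every library of 1-d-old males and under 0.3 TPM in every female library. gene1166 is at 0.28 TPM in 9-d-old replicate 4, where the summed level of the male genes is highest (17856 TPM), and the other 3 genes are each high in 1 library.

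Position in the genome was looked up by gene name in the RefSeq annotation of the assembly idZeuCucr1.2, which is not stated to be the build the authors used, so neighbours are given without coordinates. Of the 78 reference genes 68 were found there, 67 as protein-coding genes and gene2132 as a long non-coding RNA. Chromosome 4 held 24 (35.3%) of the 68, and 19.0% of the 12101 reference genes of the table that were matched. Chromosome 6 held 8 (11.8%), against 20.7% of all. These shares were not tested.

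In total 17 of the 68 genes lay in 7 groups in which each was within 5 gene positions of the next. The largest, on chromosome 4, held 5 genes in the order gene8465, gene8460, gene8459, gene8458 and gene8457. They peaked on different days. gene8460 and gene8459 were higher on day 5, gene8459 at 119.5 ± 27.4 against 3.02 ± 2.61 TPM with a log2 fold change of -5.19 (SE 0.34, limma adjusted p = 3.5e-17). gene8465 and gene8458 were higher on day 9, the latter at 9.81 ± 0.977 against 0.217 ± 0.158 TPM with a log2 fold change of 3.16 (SE 0.11, limma adjusted p = 3.1e-27). gene8457 was at 13.2 ± 0.495 and 8.15 ± 1.03 TPM and passed in neither direction. So the 2 most abundant genes of this group, 4 gene positions apart, led different days.

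Some other neighbours peaked on the same day. gene8010 and gene8011 are adjacent and both peaked on day 5, gene1854 and gene1853 are adjacent and both peaked on day 9, and gene654 and gene653 are adjacent and both had the higher mean on day 5, gene653 at 5.86 ± 2.40 TPM. Of the remaining pairs, gene11024 and gene10188 were higher on day 9 and their neighbours gene12585 and gene8395 on day 5, gene12585 without a call after rescaling. gene296 was higher on day 9, and its neighbour gene293 passed in neither direction. Whether adjacent genes share reads or transcripts was not examined.

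**Figure D5:**
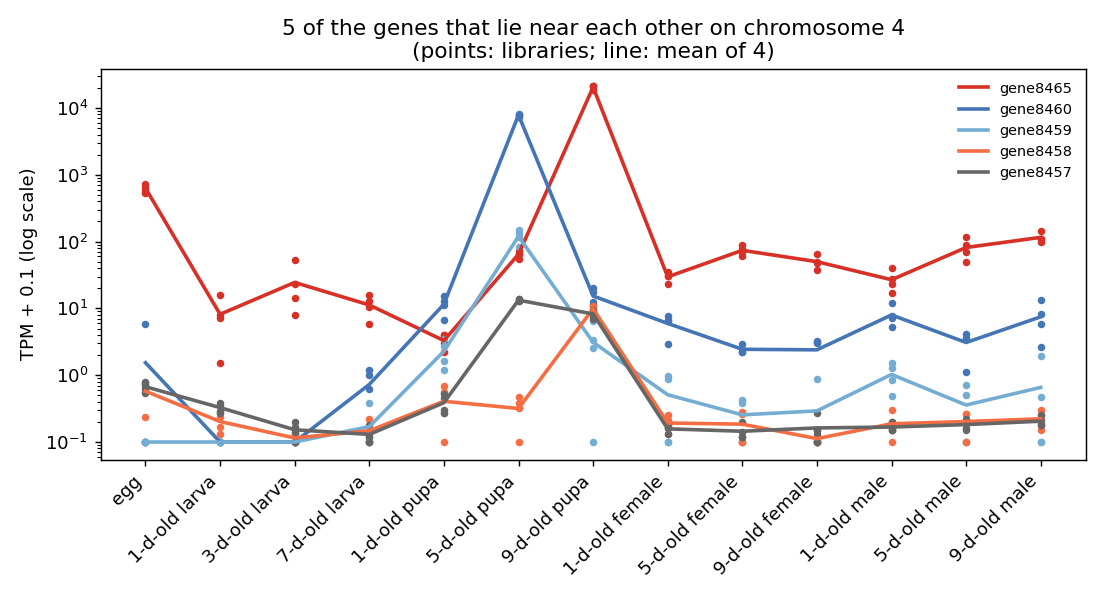
TPM + 0.1 (log scale) at the 13 stages of gene8465, gene8460, gene8459, gene8458 and gene8457, which lie near each other on chromosome 4. Points are libraries and lines are means of 4. gene8460 and gene8459 peak in 5-d-old pupae, gene8465 and gene8458 in 9-d-old pupae, and gene8465 alone has a clear level in eggs (629 TPM).

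Genes with a known product were compared by the shape of their profile, as Pearson's r of log2(mean TPM + 1) over the 13 stage means among 8612 genes. The values describe these means, share the same libraries and carry no test. The 143 genes were chosen by the same means, so a high r with other genes of these days follows partly from that choice. It does not show a shared function. gene12128 and gene654 were most like gene9097, an ice-structuring glycoprotein by its description, with r of 0.992 and 0.985. Next for gene654 were genes for cuticle proteins, structural components that bind chitin in the exoskeleton, with r of 0.980 for gene2725 and 0.977 for gene8029. For gene12128 they were gene8650, a serine protease, and gene10439, a cuticle protein, with r of 0.982 and 0.978. gene8029 stood at 20768 TPM on day 5 and 1537 TPM on day 9, far above the 2 uncharacterized genes.

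The leading genes of a single day had looser matches. gene8460 was most like gene8882 (transcription factor SPT20 homolog, r = 0.971) and gene3756 (stress response protein NST1, r = 0.955). For gene8011 the closest were gene1451 and gene11804, with r of 0.950 and 0.946. gene5066 reached r of 0.894 at most, with gene11374 (adenosine deaminase CECR1), and gene8465 reached 0.919 with gene12076 (proteoglycan 4). The levels of these matches were low beside those of the 2 genes, gene11374 being at 25.3 TPM on day 9.

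Genes with known roles in the forming adult were counted in the comparison of day 9 with day 5, in lists by product. Beside these counts, 4.22% of all genes tested were higher on day 9 and 2.84% lower. Of 36 genes of muscle contraction tested 15 were higher and 4 lower on day 9, with a median log2 fold change of 1.80, against -0.01 for all genes. gene11765, a myosin heavy chain, the motor of the thick filament, rose from 2254 ± 107 to 12667 ± 328 TPM (SD, n = 4 each). By contrast gene853 fell from 31.1 ± 2.42 to 0.070 ± 0.045 TPM. It is titin by its description only, the name of a giant spring protein of the sarcomere. Among 32 eye proteins 7 were higher and 2 lower (median 0.58). The visual pigment opsin Rh1 (gene4010) rose from 1.14 ± 0.79 to 1196 ± 141 TPM, and chaoptin (gene10568), an adhesion protein of photoreceptors, fell from 26.0 ± 1.56 to 2.46 ± 0.49 TPM.

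Cuticle genes, which were not chosen by their level on these days, were split between them. Of 150 tested 24 were higher and 28 lower on day 9 (median 0.04), for example gene1395 (larval cuticle protein A2B), which rose from 1.06 ± 0.32 to 1226 ± 138 TPM, and gene1535 (cuticle protein 8), which fell from 20519 ± 468 to 409 ± 52.1 TPM. Of 24 enzymes and proteins of tanning and pigment 5 were higher and 3 lower (median 0.08). Tyrosine 3-monooxygenase (gene8401), which makes the dopa from which cuticle tanning agents are derived, rose from 17.1 ± 17.0 to 4417 ± 1075 TPM, and protein yellow (gene5961), needed for black pigment in Drosophila, fell from 88.7 ± 16.5 to 1.50 ± 0.77 TPM. Of 24 genes of the ecdysone response and eclosion 2 were higher and 3 lower (median -0.19). The nuclear receptor FTZ-F1 (gene1101) rose from 1.98 ± 0.23 to 63.9 ± 4.10 TPM, and ecdysone-induced protein 78C (gene1483) fell from 66.4 ± 4.37 to 4.37 ± 1.01 TPM.

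The remaining lists were counted in the same way. Of 35 odorant-binding proteins, carriers of odorants in the sensillar lymph, 11 were higher and 3 lower (median 0.48). Of 82 digestive proteases 9 were higher and 2 lower (median 0.16), and of 16 genes of chitin synthesis and turnover 1 was higher and 0 lower (median -0.17). Of 64 genes of sperm and testis 1 was higher and 0 lower (median 0.77). That gene, gene5345 (protamine-like), varied widely between pools, at 250 ± 211 TPM on day 5 and 497 ± 307 TPM on day 9. The pupae are not sexed in the labels, and the part of sex in the values of this list was not tested. Of 3 genes of apical matrix and hair proteins limma called 0 (median -0.66).

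The limits of the rule passed close to some genes. Just inside the fold threshold were MSTRG.16722, whose peak mean was 5.04 times that of its next stage, and gene11317, at 5.07 times. Just outside it were MSTRG.19531 at 4.97 times and gene11968 at 4.96 times. The lowest peak means were 5.21 TPM for MSTRG.1710 and 5.22 TPM for MSTRG.18542, and the highest below the level threshold were 4.74 TPM for MSTRG.17324 and 4.69 TPM for gene9325.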

How the data were processed

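After trimming (SeqPrep, Sickle), the authors aligned reads by HISAT2 2.1.0, assembled new genes by StringTie and computed TPM by RSEM 1.3.1. The deposited table holds TPM for 18241 genes in 52 libraries, with columns that add up to between 999999 and 1000001, and a gene length in nt whose derivation is not given in the sources used here, nor is the genome build. Read counts were not used here, so the depth behind a value is unknown and no counting interval or DESeq2 test is given.

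The 143 genes, the lists and the tests were chosen with earlier results of these data known. The limma package (3.58.1, R 4.3.3) was run on log2(TPM + 1), with trend and robust variances and a mean per stage over 52 libraries, for the 17097 genes above 0.1 TPM in at least 4 libraries. The pseudocount of 1 understates changes of low genes. P-values were adjusted by Benjamini and Hochberg over all genes tested, and a call needed an adjusted p under 0.05 and a log2 fold change over 2 in size. Comparisons of the peak stages with other stages were used to choose the genes and were not tested. Replicates are separate pools by their labels, and no columns were identical. The scripts were tested on simulated data.

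Genes are named by a rule that takes the 8 of highest peak mean in each group of the day 9 and day 5 comparison, the 4 largest rises and falls without overlap, those nearest each threshold, the 3 of highest mean called in each other comparison, and the 2 called genes of highest mean per direction and list, of which some are given. 1 gene that the rule takes is not reported here. Genes singled out for their spread or position were chosen after their values were seen. Product lists (muscle, eye, cuticle, tanning and pigment, ecdysone and eclosion, odorant-binding, digestive proteases, chitin, sperm and testis, apical matrix) were matched to descriptions. Alternatives covered the pseudocount, filter, fold threshold, block, libraries left out and median-of-ratios size factors (6902 genes). Tables were handled in Python 3.11.15 with pandas 2.3.3 and numpy 2.4.6, and figures drawn with matplotlib 3.10.9. Sequences of the genes were not used here.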

Additional observations from a re-analysis of the deposited data

Results flagged for a closer look

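Of the 95 genes above 0 TPM in all 4 libraries of their peak stage, 9 had 1 library farther from the others than Dixon's test allows for a group of 4. For normal values not used in choosing the genes, chance alone would set apart about 1 gene in 20 in this way. These values were also used to choose the genes, so that rate does not apply to the 9. The pools were not the same ones, and 9-d-old pupa replicates 2 and 3 had 2 such genes each, 9-d-old pupa replicate 1 had 0, and the other pools had 1.

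In 5 of these genes the library was high. gene10060 stood at 90.2 TPM in 5-d-old pupa replicate 4, with the other 3 libraries between 0.58 and 1.07 TPM. gene7346 stood at 57.2 TPM in 5-d-old pupa replicate 2, with the others between 0.23 and 0.47 TPM. gene10090 stood at 27.0 TPM in 5-d-old pupa replicate 1, with the others between 3.14 and 4.32 TPM. gene1983 stood at 112 TPM in 9-d-old pupa replicate 2, against 36.3 to 45.1 TPM, and gene11317 at 24.7 TPM in 9-d-old pupa replicate 3, against 17.9 to 18.9 TPM.

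In the other 4 the library was low by a smaller margin. MSTRG.12952 had 215 TPM in 9-d-old pupa replicate 3, against 254 to 257 TPM, and gene1640 had 211 TPM in 5-d-old pupa replicate 3, against 239 to 243 TPM. gene8465 had 18815 TPM in 9-d-old pupa replicate 2, against 21017 to 21066 TPM, and gene4228 had 8.21 TPM in 9-d-old pupa replicate 4, against at least 11.4 TPM in the others.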

How the results depend on the processing

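The call of 28 genes higher and 49 lower on day 9 was stable. Counts ranged from 27 to 31 higher and from 44 to 59 lower over the alternatives listed here, with each library left out in turn (27 to 29 and 48 to 50), and no named gene that was called changed direction. Calls lost when 1 library was left out were those of gene1534 (without any of the 4 libraries of 5-d-old pupae in turn), MSTRG.7363 (without 9-d-old pupa replicates 1 or 4) and gene12585 (without 9-d-old pupa replicate 3). Leaving out libraries of low mapping left 1 library of 9-d-old pupae, assumed to vary like the others, and gave 27 and 44. Without 5-d-old pupa replicate 2 and 9-d-old pupa replicate 4, a choice made after seeing the data, the counts were 28 and 46. With calls from a log2 fold change of 1 onward, gene654 (-1.27), gene12128 (-1.42) and gene9862 (-1.01) were also called.

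The replicate numbers did not pair the pools. The correlations of same-numbered libraries of 9-d-old and 5-d-old pupae were -0.07, 0.16, -0.13 and 0.17, and a replicate block left the counts at 28 and 49. It moved no other count of calls by over 1.5 times. In the other comparisons these correlations lay between -0.06 and 0.07, and only in 1-d-old pupae and 7-d-old larvae did all 4 libraries correlate best with their own number.

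The number of genes taken depended on the rule. It was 220 with a fold threshold of 3, 88 with one of 10, 217 with a level threshold of 1 TPM, and 95 when all 4 libraries of the peak stage had to be above 0, which was chosen after seeing the data. The median of libraries gave 108 genes, of which 92 were among those described. Leaving out 1 library at a time gave 130 to 150, leaving out those of low mapping 132, and leaving out 5-d-old pupa replicate 2 with 9-d-old pupa replicate 4 gave 124.

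The smaller comparisons rest on few genes, so their counts move easily. With calls from a change of 1 the genes higher and lower were 15 and 3 for 1-d-old pupae against 7-d-old larvae, 2 higher for 1-d-old, 5 and 1 for 5-d-old and 16 and 2 for 9-d-old males against females, 2 and 22 for females and 2 and 15 for males from 1 d to 5 d, and 5 and 1 for the difference between the sexes. Of all 17097 genes tested these counts were 6935 and 1316 for the pupae. For males against females they were 1202 and 59, 2091 and 2489, and 3126 and 3925 in the same order of age. With age they were 3459 and 805 in females, 898 and 373 in males, and 947 and 2805 for the difference between the sexes. With a pseudocount of 0.1 the counts among the 103 genes were 16 and 4 for the pupae, 2 higher for 1-d-old, 1 and 1 for 5-d-old and 5 and 2 for 9-d-old males against females, 19 lower for females with age, and 2 and 1 for the difference between the sexes. Of all genes tested they were 4060 and 1123 for the pupae. For males against females they were 1206 and 53, 1532 and 1181, and 1988 and 2122 in the same order of age. For females with age 379 were lower, and for the difference between the sexes they were 416 and 1386. With median-of-ratios size factors the counts among the 103 genes were 3 and 3 for the pupae, 2 and 0 for 9-d-old males and 0 and 17 for females with age. Of all genes tested they were 619 and 1429, 1794 and 842, and 690 and 377. For the 103 genes, leaving out libraries gave 0 to 1 lower in the pupae, 0 to 1 lower in 1-d-old males, 0 to 1 higher in 5-d-old and in 9-d-old males, and 0 to 1 in each direction for the difference between the sexes. The causes were not tested. Without counts, depth could not be used to limit a value.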
